A study of Mus musculus with 10 samples.

Results

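Total RNA of the cerebellum was compared between Bmal1 knockout and wild-type mice, gene by gene, with attention to functions outside the circadian clock. Genes were taken where the authors' table gives a mean of 100 reads or more, which were 11676 of its 22046 genes. Both genotypes were littermates from crosses of heterozygous Bmal1+/- parents on a C57BL/6 background, kept on a cycle of 12 h light and 12 h dark. The knockout animals were Bmal1-/-, homozygous for the knockout allele, and the wild types were Bmal1+/+. Neither group received a treatment, and the labels give no sex, age or time of day of dissection. The series holds 10 libraries, 6 of total RNA and 4 of ribosome footprints. Total RNA of knockouts 1 and 3 and of wild types 2 and 3 entered the comparison, and the total RNA libraries of knockout 2 and wild type 1 were not analysed here. The labels number the libraries but do not say outright that each number is a separate animal, so p-values measure the spread between these libraries.

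Bmal1, whose gene symbol is Arntl, encodes a transcription factor that pairs with CLOCK or NPAS2 and binds E-box motifs of its target genes. Among these targets are the period, cryptochrome and REV-ERB genes, whose products feed back on the clock, and the PAR bZIP factors such as DBP, which bind D-box motifs. Clock factors also act on genes of metabolism, and the cerebellum holds granule neurons, Purkinje cells, interneurons and the Bergmann glia, with choroid plexus of the fourth ventricle beside it.

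Expression is given as RPKM (reads adjusted for a length and for the depth of the library) as the authors deposited it, always with knockout 1 before knockout 3 and wild type 2 before wild type 3. RPKM was compared within a gene only. Differences are log2 fold changes of RPKM + 0.1, knockout minus wild type, with the standard error (SE) from limma, and adjusted p is limma's after Benjamini-Hochberg correction over all 11676 genes. A gene is called, and is said to rise or fall, at an adjusted p under 0.05. With 2 libraries a side an exact permutation test of a single gene cannot go below p = 0.333, so the calls rest on the spread that limma shares between genes.

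Of the genes tested, 826 were called (7.07%), 471 higher in the knockout (4.03%) and 355 lower (3.04%). Only 94 increases and 50 decreases reached 1 log2 unit, and 202 calls were under 0.5. The median log2 fold change over all tested genes was -0.017, and 5% of genes lay below -0.42 and 5% above 0.46. Clock genes made up 21 of the called genes and 805 lay outside the clock list. Of the 2919 genes with the fewest reads 8.43% were called, and of the 2919 with the most reads 6.82%. Leaving out knockout 1 lowered the number of calls to 270 (2.31%, with 1.4% called higher and 0.916% lower). Leaving out knockout 3 lowered it to 471 (4.03%, with 2.48% higher and 1.55% lower). There were 740 calls without wild type 2 (6.34%, with 3.88% higher and 2.46% lower) and 1292 without wild type 3 (11.1%, with 6.33% higher and 4.74% lower). Without each of the 4 libraries in turn, 229 genes kept their call, 144 of them higher and 85 lower, and no called gene turned its direction. A gene whose genotypes do not overlap cannot turn its direction when a library is left out, and these fits share libraries. Calls that passed without each library in turn are described below as held. A fit that leaves 1 library in a genotype holds no spread within that genotype, so it cannot show whether a call withstands that spread.

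**Figure D1:**
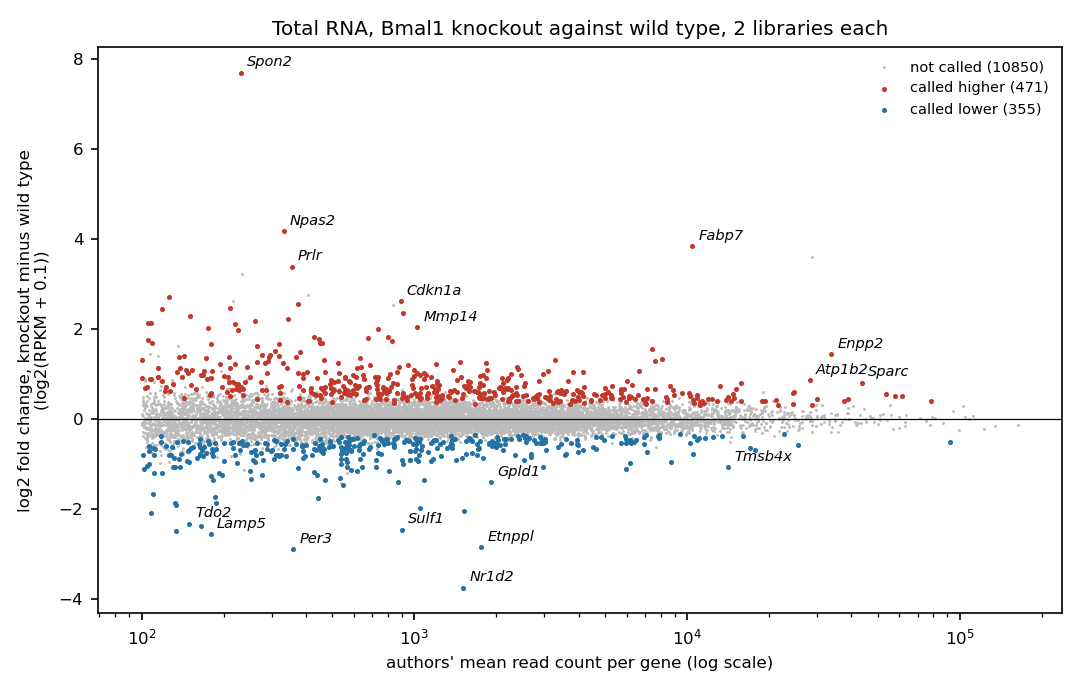
Log2 fold change in total RNA (knockout minus wild type, RPKM + 0.1) against the authors' mean read count per gene on a log axis. Red points are the 471 genes called higher, blue the 355 called lower and grey the genes not called. Spon2 lies far above all other genes, and calls occur at all read counts.

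Both knockout libraries were deeper than both wild-type libraries (38.9 M and 43.2 M recovered reads against 25.6 M and 27.8 M), so depth and genotype cannot be told apart. The wild types differed more from each other than the knockouts did: the SD of the log2 ratio over genes was 0.248 between the wild types and 0.180 between the knockouts. In 32 genes wild type 2 exceeded wild type 3 by more than 1 log2 unit, and in 7 genes wild type 3 exceeded wild type 2 by as much. Markers of the choroid plexus, the epithelium that makes cerebrospinal fluid, stood out among them. Ttr, the transthyretin gene by which this epithelium is known, was at 11753 and 13916 RPKM in knockouts 1 and 3 and 5390.4 and 208 RPKM in wild types 2 and 3. Kl, the klotho gene, was at 578 and 599.7 RPKM in knockouts 1 and 3 and 277 and 37.2 RPKM in wild types 2 and 3. Hoxa5, a gene of hindbrain and spinal cord that lies outside the tested genes, was at 1.39 and 1.57 RPKM against 40.6 and 0.727 RPKM, high in wild type 2 alone. Wild types 2 and 3 thus differed in these markers, and their part in the results was not tested. In bulk tissue, fewer cells of a type and less RNA per cell cannot be told apart.

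**Figure D2:**
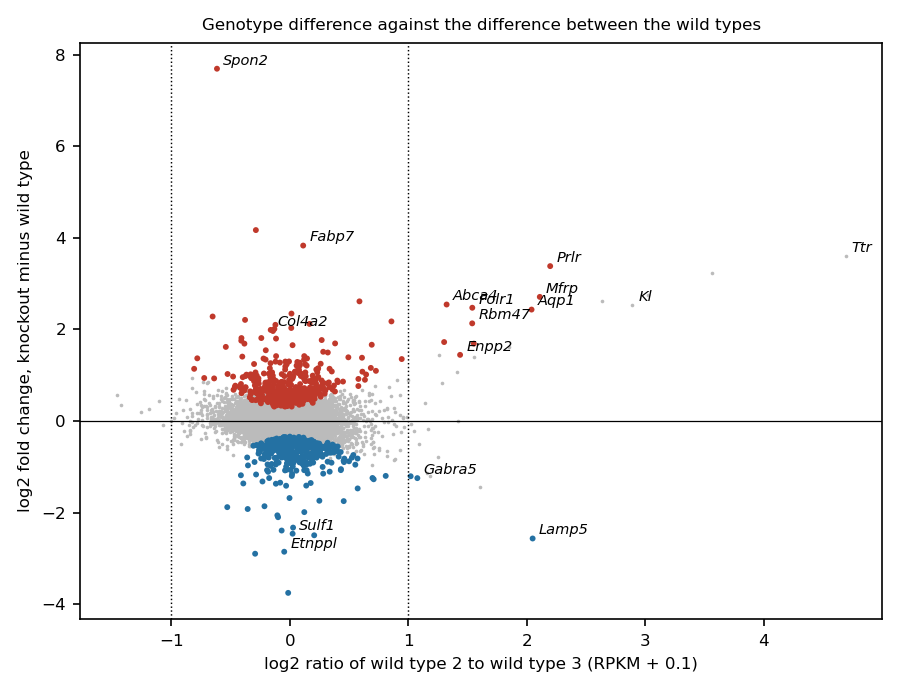
Log2 fold change between genotypes against the log2 ratio of wild type 2 to wild type 3 for each gene, with dotted lines at 1 log2 unit either way. Red and blue points are genes called higher and lower, grey points are genes not called. Fabp7, Sulf1 and Etnppl sit where the wild types were close, and Spon2 lies at -0.61, inside the dotted lines. Prlr, Mfrp, Aqp1, Folr1, Enpp2 and Lamp5 sit where wild type 2 was more than 2-fold above wild type 3.

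The genotype was checked first on the targeted gene and its clock partners. Arntl (ENSMUSG00000055116, chromosome 7, 113207465 to 113314126 in mm10) was at 267 and 272 RPKM in knockouts 1 and 3 and 179 and 179 RPKM in wild types 2 and 3, so its RNA was higher in the knockout (log2 fold change 0.59, SE 0.085, adjusted p = 0.00573). Its ribosome footprints were lower in the knockout, at 124 and 107 RPKM in the knockouts and 258 and 295 RPKM in the wild types. A value over the whole gene does not show whether the deleted part is present, so the total RNA of Arntl does not check the label by itself. Other clock genes moved strongly, in both directions. Npas2, the alternative partner of BMAL1, was at 11.5 and 9.65 RPKM against 0.437 and 0.554 RPKM (log2 fold change 4.17, SE 0.17, adjusted p = 9.41e-06). Nr1d2, which encodes a REV-ERB repressor, was at 1.92 and 1.85 RPKM against 26.5 and 26.8 RPKM (log2 fold change -3.75, SE 0.12, adjusted p = 1.94e-06), and its relative Nr1d1 at 30.1 and 26.1 RPKM against 117 and 107 RPKM. Dbp was at 4.06 and 3.93 RPKM against 16.4 and 17.6 RPKM, Per3 at 2.46 and 2.30 RPKM against 16.6 and 20.3 RPKM and Per2 at 16.5 and 23.8 RPKM against 55.6 and 50.4 RPKM, all lower in the knockout. Ciart, a repressor of the clock, fell as well (0.905 and 1.21 RPKM against 6.85 and 5.92 RPKM), whereas Cry1 rose (378 and 429.6 RPKM against 182 and 212 RPKM). The 27 clock genes tested included 7 that rose and 14 that fell, and the genotypes did not overlap in any of the clock genes named, as in 55.7% of all tested genes. The remaining text is on genes outside the clock list, except where another list shares a gene with it.

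The largest increase outside the clock was that of Spon2 (ENSMUSG00000037379, chromosome 5, 33198184 to 33218455 in mm10), which encodes mindin, a secreted protein of the extracellular matrix. It was at 157 and 146 RPKM in knockouts 1 and 3 and 0.492 and 0.806 RPKM in wild types 2 and 3 (log2 fold change 7.69, SE 0.19, adjusted p = 4.66e-07). In recovered reads this was 3786 and 3912 reads against 8 and 14, so the gene was close to silent in the wild types and readily counted in the knockouts. Its footprints were at 202 and 262 RPKM in the knockouts and 0.732 and 0.881 RPKM in the wild types. Fabp7 (ENSMUSG00000019874, chromosome 10, 57784881 to 57788450 in mm10), the brain lipid-binding protein of radial and Bergmann glia, was at 244 and 248.6 RPKM in knockouts 1 and 3 and 17.9 and 16.6 RPKM in wild types 2 and 3, a mean 14.3 times higher in the knockout (log2 fold change 3.83, SE 0.098, adjusted p = 4.66e-07). Footprints of Fabp7 were at 809.8 and 678 RPKM against 43.7 and 37.7 RPKM. In both genes the 2 libraries of a genotype lay far closer together than the genotypes did.

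Cdkn1a, the inhibitor of cyclin-dependent kinases that p53 induces, rose from 2.79 and 1.82 RPKM in the wild types to 14.8 and 13.8 RPKM in the knockouts (log2 fold change 2.61, SE 0.19, adjusted p = 0.000243). Igsf1, an immunoglobulin-like membrane protein known from the pituitary and thyroid axis, was at 10.9 and 10.49 RPKM against 2.03 and 2.01 RPKM (log2 fold change 2.35, SE 0.13, adjusted p = 7.06e-05). Col5a3, a chain of fibrillar collagen V, was at 13.8 and 16.8 RPKM against 2.41 and 3.84 RPKM (log2 fold change 2.28, SE 0.21, adjusted p = 0.000738). Ntng2, the axonal adhesion protein netrin-G2, was at 9.58 and 8.33 RPKM against 1.62 and 2.13 RPKM (log2 fold change 2.21, SE 0.16, adjusted p = 0.000254). These 4 genes held their calls without each library. Il17rd, an inhibitor of FGF signalling, was at 28.9 and 28.3 RPKM against 8.47 and 4.62 RPKM (log2 fold change 2.17, SE 0.24, adjusted p = 0.00158). Pla2g3, a secreted phospholipase, was at 39.5 and 47.7 RPKM against 10.51 and 9.35 RPKM (log2 fold change 2.12, SE 0.13, adjusted p = 0.000102), and Mrln, the micropeptide myoregulin that binds the calcium pump of muscle, at 5.18 and 4.22 RPKM against 0.969 and 1.06 RPKM (log2 fold change 2.10, SE 0.16, adjusted p = 0.000265). Their calls were held as well.

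The other 6 of the 15 largest increases had wild types that differed more than 2-fold from each other, always with wild type 2 above wild type 3. Prlr, the prolactin receptor, was at 70.4 and 76.7 RPKM in knockouts 1 and 3 and 15.0 and 3.20 RPKM in wild types 2 and 3 (log2 fold change 3.38, SE 0.55, adjusted p = 0.00988). Mfrp, a frizzled-related membrane protein, was at 1.78 and 1.56 RPKM against 0.462 and 0.03 RPKM. In recovered reads Mfrp was at 412 and 402 against 72 and 5, and its RPKM in wild type 3 lies below the pseudocount of 0.1. Abca4, a retinoid flippase, was at 9.80 and 9.31 RPKM against 2.52 and 0.946 RPKM. Folr1, the folate receptor of the choroid plexus, was at 1.60 and 1.71 RPKM against 0.438 and 0.0849 RPKM. Aqp1, a water channel, was at 17.9 and 19.6 RPKM against 6.97 and 1.62 RPKM, and Rbm47, an RNA-binding protein, at 5.37 and 5.59 RPKM against 2.07 and 0.646 RPKM. Their calls were held, but a fit without a wild type holds no spread between the wild types. Such a fit cannot show whether these calls withstand it. The log2 fold change of Prlr was 4.48 without wild type 2 and 2.28 without wild type 3. These 6 genes moved with Ttr and Kl, which are given above and were not called. The part of choroid plexus in these increases was not tested.

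**Figure D3:**
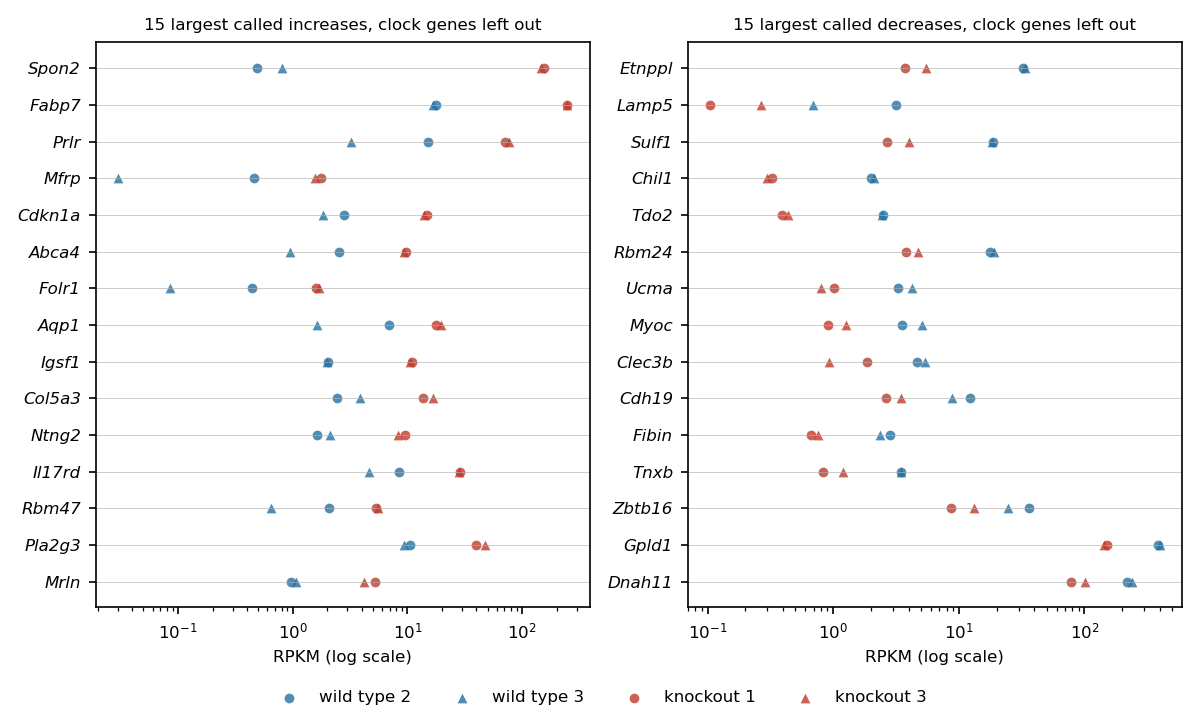
RPKM on a log axis in each library for the 15 largest called increases (left) and the 15 largest called decreases (right) outside the clock list. Circles are knockout 1 and wild type 2, triangles knockout 3 and wild type 3, red for the knockout and blue for the wild type. The genotypes do not overlap in any of the 30 genes, which were picked for their change, as in 55.7% of all tested genes, and the wild types lie far apart in Prlr, Mfrp, Folr1, Aqp1 and Lamp5.

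Among decreases, Etnppl (ENSMUSG00000019232, chromosome 3, 130617448 to 130637521 in mm10) was at the head. It encodes the phospho-lyase that breaks down phosphoethanolamine and is known as an astrocyte gene. It was at 3.71 and 5.44 RPKM in knockouts 1 and 3 and 32.6 and 33.6 RPKM in wild types 2 and 3, a mean 7.24 times lower in the knockout (log2 fold change -2.85, SE 0.17, adjusted p = 0.000101), with footprints at 9.19 and 9.91 RPKM against 61.7 and 62.6 RPKM. Sulf1, an extracellular sulfatase that trims heparan sulfate, was at 2.67 and 4.04 RPKM against 18.7 and 18.4 RPKM (log2 fold change -2.46, SE 0.18, adjusted p = 0.000254). Chil1, a secreted chitinase-like protein of glia, was at 0.325 and 0.296 RPKM against 2.00 and 2.10 RPKM (log2 fold change -2.39, SE 0.16, adjusted p = 0.000166). Tdo2, which opens the ring of tryptophan and so starts the kynurenine pathway, was at 0.392 and 0.438 RPKM against 2.51 and 2.46 RPKM (log2 fold change -2.33, SE 0.16, adjusted p = 0.000166). All 4 held their calls, and their wild types lay close together.

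Rbm24, an RNA-binding splicing regulator, was at 3.81 and 4.72 RPKM against 17.9 and 19.2 RPKM, a log2 fold change of -2.10. Several secreted and matrix proteins fell: Ucma, known from cartilage, was at 1.02 and 0.801 RPKM against 3.27 and 4.21 RPKM, and Myoc, myocilin, at 0.913 and 1.27 RPKM against 3.51 and 5.11 RPKM. Clec3b, tetranectin, was at 1.86 and 0.918 RPKM against 4.67 and 5.42 RPKM, and Tnxb, tenascin X, at 0.837 and 1.201 RPKM against 3.44 and 3.44 RPKM. Fibin, a secreted protein, was at 0.669 and 0.752 RPKM against 2.85 and 2.38 RPKM. Cdh19, a cadherin of glial lineages, was at 2.65 and 3.45 RPKM against 12.2 and 8.86 RPKM. Zbtb16, a zinc finger transcription factor that glucocorticoids induce, was at 8.72 and 13.2 RPKM against 36.5 and 24.5 RPKM. Gpld1, a phospholipase that releases GPI-anchored proteins, was at 152 and 143 RPKM against 388 and 397 RPKM, and Dnah11, a heavy chain of ciliary dynein, at 78.1 and 101 RPKM against 220.3 and 239 RPKM. The log2 fold changes of these 9 genes lay between -1.92 for Ucma and -1.37 for Dnah11, and their calls were held. Lamp5, a membrane protein of inhibitory neurons, was at 0.105 and 0.264 RPKM against 3.19 and 0.694 RPKM (log2 fold change -2.56, SE 0.56, adjusted p = 0.0332). Wild type 2 stood apart in Lamp5, and without knockout 1 it was not called.

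Promoter sequences were searched because BMAL1 acts through E-boxes and DBP through D-boxes. The RefSeq table for GRCm38.p6 held windows of 300 bases, 250 before and 50 after a start site, for 9263 of the tested genes, 12072 windows in all. The E-box CACGTG, which reads the same on both strands, was in 9.91% of windows of tested genes, in 8.13% of those of genes called higher and in 11.2% of those of genes called lower. An E-box-like motif, CACGTT or its reverse complement AACGTG, was in 5.12%, 4.07% and 4.31%. A nuclear receptor half-site, AGGTCA or TGACCT, was in 11.5%, 11.8% and 10.3%. The D-box TTATGTAA or its reverse complement TTACATAA was rare, in 63 windows or 0.522%, with 1 of 492 windows of genes called higher (0.203%) and 8 of 348 windows of genes called lower (2.3%). Over all 32851 windows of the table the shares were 7.15% for CACGTG, 4.68% for the E-box-like motif, 0.938% for the D-box and 16.3% for the half-site. A match describes the letters and is not evidence of binding, and these shares carry no test.

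The 8 genes called lower with a D-box in a window were the clock gene Per3 and Chil1, Coq10b, Crtac1, Cox7b, Scn1a, Cntn4 and Baz1b, and the gene called higher was Prlr. They were picked out after their values were seen. Coq10b, a mitochondrial coenzyme Q protein, was at 2.07 and 2.72 RPKM against 5.45 and 5.38 RPKM (log2 fold change -1.16), and Crtac1, a secreted cartilage protein also made in brain, at 2.87 and 2.82 RPKM against 6.32 and 4.58 RPKM (log2 fold change -0.90). Below are the 250 bases before the start site of 2 genes with a D-box and of 2 genes with an E-box, 5′ to 3′ on the strand of the gene, with the motif in capitals. They show where these letters lie in genes that differed: Chil1 and Crtac1 fell, Klf15, a Krüppel-like factor of metabolism, fell, and Igfbp2, an IGF-binding protein, rose.
Chil1, chr1:134181906-134182155, plus strand, D-box 52 bases before the start: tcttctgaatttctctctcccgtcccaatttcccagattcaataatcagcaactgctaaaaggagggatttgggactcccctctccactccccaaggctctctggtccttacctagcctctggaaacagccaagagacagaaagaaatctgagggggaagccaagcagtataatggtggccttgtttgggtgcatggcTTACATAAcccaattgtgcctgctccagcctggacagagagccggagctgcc
Crtac1, chr19:42431789-42432038, minus strand, D-box 29 bases before the start: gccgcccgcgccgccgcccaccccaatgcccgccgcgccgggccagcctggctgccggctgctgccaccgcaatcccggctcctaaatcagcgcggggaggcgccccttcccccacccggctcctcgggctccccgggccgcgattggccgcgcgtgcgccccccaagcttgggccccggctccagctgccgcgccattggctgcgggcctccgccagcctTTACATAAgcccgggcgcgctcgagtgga
Klf15, chr6:90462326-90462575, plus strand, E-boxes 228 and 172 bases before the start: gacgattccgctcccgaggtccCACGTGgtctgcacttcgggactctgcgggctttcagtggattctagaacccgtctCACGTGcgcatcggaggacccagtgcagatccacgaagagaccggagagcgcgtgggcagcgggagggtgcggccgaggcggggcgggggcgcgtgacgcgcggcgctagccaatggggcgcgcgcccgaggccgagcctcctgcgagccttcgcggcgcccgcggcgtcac
Igfbp2, chr1:72824230-72824479, plus strand, E-box 142 bases before the start: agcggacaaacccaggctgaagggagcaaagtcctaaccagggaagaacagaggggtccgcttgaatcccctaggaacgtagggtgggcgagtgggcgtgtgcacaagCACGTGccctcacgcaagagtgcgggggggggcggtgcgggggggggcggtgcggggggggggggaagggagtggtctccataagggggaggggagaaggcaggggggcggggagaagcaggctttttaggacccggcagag
Crtac1 and Igfbp2 each have another window in the table, without the motif shown.

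Genes were then read by function in 63 lists of named pathways and families. Of the 805 called genes outside the clock, 225 were in at least 1 list. Against the background of 4.03% called higher and 3.04% called lower, the counts of each list are given with its median, which for all tested genes was -0.017. No list was tested as a set. Some lists had shares called near the 7.07% of all tested genes, so their counts do not set them apart. Among these were kinesins and dyneins (7.69%), myosins (7.41%), sphingolipid genes (7.41%), RGS proteins (7.14%) and phosphodiesterases and cyclases (7.14%). For lists without a call, counts at an unadjusted p under 0.05 and by limma-voom on recovered reads are given. Over all 11676 tested genes these counts were 2819 and 1390.

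**Figure D4:**
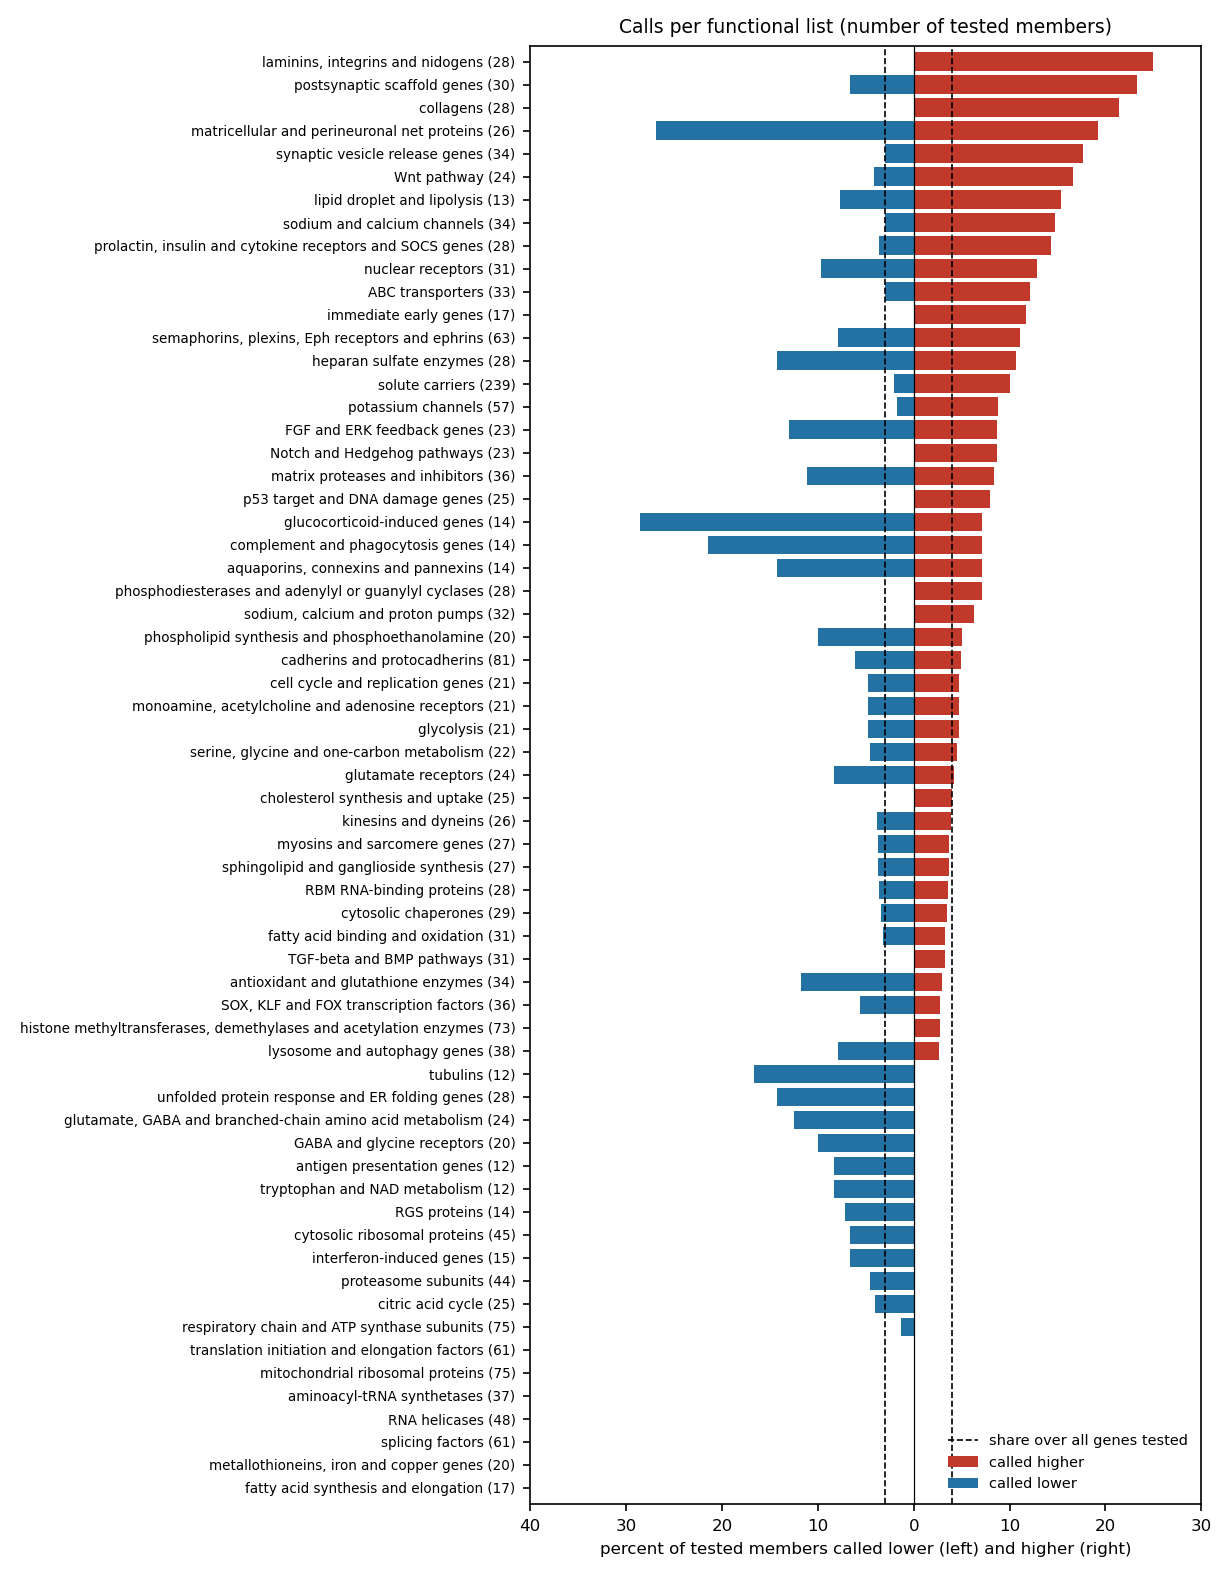
Percent of the tested members of each of 63 functional lists called lower (blue, left) and higher (red, right), with the number tested in brackets and dashed lines at the shares over all tested genes (3.04% and 4.03%). Laminins, integrins and nidogens, postsynaptic scaffold genes and collagens had the longest bars to the right, glucocorticoid-induced and matricellular genes to the left, and 7 lists had no call.

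The extracellular matrix held many calls. Of 28 collagen chains 6 rose and none fell, and the same 6 were called without each library, although the median of the list was -0.01. After Col5a3, the basement membrane chains Col4a2 and Col4a1 rose furthest. Col4a2 was at 88.4 and 81.0 RPKM against 20.1 and 22.5 RPKM (log2 fold change 1.99, SE 0.11, adjusted p = 7.06e-05), and Col4a1 at 40.9 and 41.3 RPKM against 10.1 and 13.4 RPKM (log2 fold change 1.81, SE 0.14, adjusted p = 0.000347). These genes lie head to head on chromosome 8 with start sites 21 bases apart, at 11312805 and 11312826, on opposite strands. Col8a1, a short-chain collagen of vessels, was at 1.01 and 1.37 RPKM against 0.479 and 0.311 RPKM. Of 28 laminins, integrins, nidogens and proteoglycans of the basement membrane 7 rose and none fell. Itgb7, an integrin subunit of lymphocytes, was at 103 and 132 RPKM against 37.2 and 36.6 RPKM (log2 fold change 1.66, SE 0.13, adjusted p = 0.000275), and Lama5, a laminin chain, at 192 and 213 RPKM against 89.0 and 85.5 RPKM (log2 fold change 1.21, SE 0.097, adjusted p = 0.000347). Nid2, which links laminin to collagen IV, was at 6.33 and 7.37 RPKM against 3.24 and 3.13 RPKM, and Itga8, an integrin subunit, at 1.12 and 0.969 RPKM against 0.475 and 0.439 RPKM. Leaving out knockout 1 gave 3 calls in the list, and Itga8 was not among them.

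Matricellular and perineuronal net proteins moved both ways: of 26 tested 5 rose and 7 fell, and the median was -0.32. Ncan, the proteoglycan neurocan of perineuronal nets, was at 60.7 and 54.3 RPKM against 30.6 and 30.3 RPKM (log2 fold change 0.91, SE 0.11, adjusted p = 0.00208), whereas Vcan, the related versican, was at 4.16 and 4.42 RPKM against 8.46 and 7.41 RPKM (log2 fold change -0.87, SE 0.13, adjusted p = 0.00743). Sparc, a secreted glycoprotein that binds collagen, rose as well (282 and 285 RPKM against 167 and 157 RPKM, log2 fold change 0.81). When knockout 1 was left out, the counts were 3 higher and 1 lower, and Vcan lost its call, and without knockout 3 they were 4 and 3. Among 28 enzymes and cores of heparan sulfate 3 rose and 4 fell, and there were 3 calls without knockout 1 and 4 without knockout 3. Besides Sulf1, the glypican Gpc5 fell (32.7 and 35.6 RPKM against 67.9 and 61.5 RPKM), while the syndecan Sdc3 rose (412 and 353 RPKM against 265 and 243 RPKM), as did the sulfotransferase Hs3st1 (10.3 and 10.1 RPKM against 6.82 and 6.65 RPKM). Sdc3 was not called without knockout 1, nor Hs3st1 without knockout 1 or without knockout 3.

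Of 36 matrix proteases and inhibitors 3 rose and 4 fell. Mmp14, the membrane-anchored metalloproteinase that activates other such enzymes, was at 23.2 and 23.9 RPKM against 5.72 and 5.67 RPKM (log2 fold change 2.03, SE 0.11, adjusted p = 7.06e-05). Adamts18, a secreted metalloproteinase, was at 36.2 and 32.1 RPKM against 9.34 and 10.1 RPKM (log2 fold change 1.80, SE 0.12, adjusted p = 0.000152). Timp3, an inhibitor of these enzymes, went the other way at 114 and 111 RPKM against 216 and 189 RPKM (log2 fold change -0.84, SE 0.099, adjusted p = 0.00215). Adamts20 also fell (5.10 and 6.29 RPKM against 9.25 and 10.9 RPKM), but was not called without knockout 1, where the list had 3 calls up and 1 down, and without wild type 3 it had 6 each way.

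Calls among lipid genes came to between 0 and 3 in each list. Of 25 genes of cholesterol synthesis and uptake Sqle alone was called, which encodes squalene epoxidase (505 and 548 RPKM against 337 and 315 RPKM, log2 fold change 0.69, SE 0.089, adjusted p = 0.00324), and the call was held. Of 31 genes of fatty acid binding and oxidation, Fabp7 rose and its relative Fabp5 fell (13.5 and 12.4 RPKM against 18.8 and 21.4 RPKM), the latter not called without knockout 1 or without knockout 3. None of 17 genes of fatty acid synthesis was called by limma or limma-voom, 2 had an unadjusted p under 0.05, and 1 was called higher without wild type 2. Scd2, a desaturase and the most abundantly read of them, was at 4045 and 3935 RPKM against 4082 and 3945 RPKM. Of 13 lipid droplet genes 2 rose and 1 fell. Cidea, a droplet protein of brown fat, was at 20.2 and 20.7 RPKM against 7.93 and 8.62 RPKM (log2 fold change 1.30, SE 0.11, adjusted p = 0.000605), and Lipe, hormone-sensitive lipase, at 99.1 and 84.9 RPKM against 60.4 and 57.9 RPKM, while Plin3, a droplet coat protein, was at 5.57 and 5.90 RPKM against 7.80 and 9.22 RPKM. Cidea held its call, Lipe lost it without knockout 1 and Plin3 without knockout 1, knockout 3 or wild type 3.

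Among phospholipid genes Etnppl fell together with Chpt1, a choline phosphotransferase (13.2 and 14.7 RPKM against 22.5 and 20.8 RPKM), and Agpat3, an acyltransferase, rose (898 and 839 RPKM against 670.4 and 706 RPKM), 3 calls in 20 genes. Of 27 sphingolipid genes, Ugt8a, which makes the galactolipid of myelin, fell (25.2 and 29.8 RPKM against 45.8 and 39.2 RPKM) and B4galt6, a lactosylceramide synthase, rose (130.1 and 119 RPKM against 92.1 and 89.4 RPKM). Of these 4 calls besides Etnppl none was held without knockout 1.

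In sugar metabolism the hexokinase genes Hk1 and Hk2 differed, in opposite directions. Hk2, the insulin-regulated form, was at 3.04 and 3.48 RPKM against 7.63 and 8.96 RPKM (log2 fold change -1.32, SE 0.14, adjusted p = 0.00158), and Hk1, the main form of brain, at 108 and 112 RPKM against 84.5 and 81.6 RPKM (log2 fold change 0.40, SE 0.092, adjusted p = 0.0376). These were the calls among 21 glycolysis genes, and Hk1 was not called without knockout 1, knockout 3 or wild type 3. Of 25 genes of the citric acid cycle Idh2, a mitochondrial isocitrate dehydrogenase, fell (16.2 and 18.5 RPKM against 25.3 and 30.2 RPKM), but not without knockout 1. Of 22 genes of one-carbon metabolism 1 rose and 1 fell. The decrease was in Mthfd1l, a mitochondrial formate synthetase (41.9 and 37.1 RPKM against 62.9 and 64.4 RPKM), which held its call.

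Tdo2 was the call among 12 genes of tryptophan and NAD metabolism. Of 24 genes of glutamate, GABA and branched-chain amino acids 3 fell: Aldh1a1, an aldehyde dehydrogenase, was at 22.8 and 23.5 RPKM against 47.4 and 43.7 RPKM (log2 fold change -0.97, SE 0.10, adjusted p = 0.00158), Glul, the glial glutamine synthetase, at 68.7 and 70.6 RPKM against 114 and 113 RPKM (log2 fold change -0.70, SE 0.092, adjusted p = 0.00362) and Asl, of the urea cycle, at 7.23 and 6.81 RPKM against 11.4 and 11.3 RPKM. The first 2 held their calls, and Asl was not called without knockout 1 or without knockout 3. In antioxidant and glutathione metabolism 1 of 34 genes rose and 4 fell. Gstt1, a glutathione transferase, was at 0.486 and 0.429 RPKM against 1.28 and 1.36 RPKM (log2 fold change -1.35, SE 0.17, adjusted p = 0.0026) and held its call. Gsta4 (25.5 and 27.1 RPKM against 44.8 and 38.2 RPKM) and Txnip, which binds thioredoxin (21.5 and 23.6 RPKM against 29.5 and 36.5 RPKM), fell too, and Gstk1 rose (5.15 and 5.59 RPKM against 3.11 and 3.46 RPKM), all 3 without a call when knockout 1 was left out.

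Transport genes were called mostly in the upward direction. Of 239 solute carriers 24 rose and 5 fell, with a median of 0.07. Slc20a2, a phosphate transporter linked to brain calcification, was at 60.3 and 57.1 RPKM against 18.7 and 21.5 RPKM (log2 fold change 1.54, SE 0.11, adjusted p = 0.000244). Slc6a12, a transporter of betaine and GABA, was at 6.45 and 6.61 RPKM against 2.91 and 2.63 RPKM (log2 fold change 1.21, SE 0.13, adjusted p = 0.00159), and the glucose transporter gene Slc2a12 at 28.4 and 35.9 RPKM against 18.1 and 11.2 RPKM (log2 fold change 1.16, SE 0.21, adjusted p = 0.0172). Slc24a4, an exchanger of sodium, calcium and potassium, was lower, at 0.699 and 0.555 RPKM against 1.87 and 1.64 RPKM (log2 fold change -1.35, SE 0.17, adjusted p = 0.00334). These 4 calls were held, but without knockout 1 the list had 6 increases and 2 decreases, and without knockout 3 it had 14 and 2. Of 33 ABC transporters 4 rose and 1 fell. Besides Abca4, Abcc4 (6.38 and 6.69 RPKM against 4.58 and 3.54 RPKM) and the lysosomal Abcb9 (50.1 and 45.0 RPKM against 28.5 and 31.9 RPKM) rose and Abca8a fell (0.962 and 0.839 RPKM against 2.34 and 1.91 RPKM). With knockout 1 left out, the list had 1 increase and 1 decrease, and Abcc4 and Abcb9 were not called, and without knockout 3 it had 2 and 1.

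Of 32 ion pump genes 2 rose and none fell. Atp1b2, the glial beta subunit of the sodium-potassium pump, rose and was at 176 and 128 RPKM against 96.6 and 70.7 RPKM (log2 fold change 0.86, SE 0.18, adjusted p = 0.0276), with wild type 2 and knockout 1 the higher of their genotypes. It was not called without knockout 1. In 14 aquaporins, connexins and pannexins, Aqp1 rose, and Gjb6, an astrocyte connexin (5.83 and 6.98 RPKM against 11.3 and 11.01 RPKM), and Panx1 (8.25 and 6.80 RPKM against 13.7 and 10.3 RPKM) fell, the latter 2 not without knockout 1. Among 20 metallothioneins, iron and copper genes limma called none, with 5 at an unadjusted p under 0.05. In this list 3 genes were called lower without wild type 3, 1 higher without wild type 2, and 1 higher and 3 lower by limma-voom. Fth1, ferritin heavy chain, was at 676 and 560.1 RPKM against 903 and 635 RPKM.

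Ion channels were called more often higher than lower. Of 57 potassium channel genes 5 rose and 1 fell, and of 34 sodium and calcium channel genes likewise 5 rose and 1 fell. Kcna2, the axonal Kv channel subunit, was at 10466 and 9888 RPKM against 5903 and 5861 RPKM, a mean 1.73 times higher (log2 fold change 0.79, SE 0.07, adjusted p = 0.000605), and held its call. Kcnk1, a background channel, was at 122 and 128 RPKM against 86.6 and 88.2 RPKM, and Kcnc4, a fast Kv channel, at 201 and 186 RPKM against 136 and 137 RPKM. Kcnj13, a channel of epithelia including choroid plexus, was at 1.53 and 1.47 RPKM against 0.751 and 0.190 RPKM, with wild types more than 2-fold apart. Among calcium channel genes, Cacna1i, a low-voltage channel, rose (2204 and 1879.7 RPKM against 1359.7 and 1517 RPKM), as did Cacnb3 (46.3 and 40.3 RPKM against 30.2 and 29.8 RPKM). The auxiliary subunits Cacng2, stargazin, which carries AMPA receptors to granule cell synapses (430.4 and 371 RPKM against 288 and 242 RPKM), and Cacng5 (22.6 and 21.6 RPKM against 14.5 and 16.3 RPKM) rose too. Scn1a, a sodium channel gene named above for its D-box, fell (2398 and 2494 RPKM against 3529 and 3211 RPKM). The log2 fold changes of these 4 calcium channel genes were between 0.50 and 0.60. Leaving out knockout 1, the potassium channel list had 1 call and the sodium and calcium channel list none, and without knockout 3 they had 3 and 4.

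Receptors of fast transmission moved both ways. Grin2c, the NMDA receptor subunit of mature granule cells, rose (380.2 and 335 RPKM against 189 and 245 RPKM, log2 fold change 0.73, SE 0.13, adjusted p = 0.0158), whereas Grin3a fell (5.87 and 5.60 RPKM against 10.8 and 10.6 RPKM, log2 fold change -0.89, SE 0.12, adjusted p = 0.00393) and so did the AMPA subunit Gria2 (478 and 531 RPKM against 632 and 682 RPKM). These were the calls among 24 glutamate receptor genes, of which Grin3a was held and the others were not called without knockout 1. Of 20 GABA and glycine receptor genes 2 fell and none rose, with a median of -0.16. Gabrg1, a subunit of Bergmann glia, was at 50.0 and 50.9 RPKM against 72.9 and 66.8 RPKM, and Gabra5 at 0.757 and 0.747 RPKM against 2.84 and 1.29 RPKM, with wild type 2 more than 2-fold above wild type 3. Neither was called when knockout 1, knockout 3 or wild type 2 was left out. In 21 receptors of monoamines, acetylcholine and adenosine, Adrb1, an adrenoceptor, rose (1.39 and 1.74 RPKM against 0.743 and 0.826 RPKM) and Hrh3, a histamine receptor, fell (16.8 and 15.7 RPKM against 24.8 and 28.5 RPKM), both not without knockout 3.

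Synaptic genes were called mostly higher, each by under 1 log2 unit. Of 34 genes of vesicle release 6 rose and 1 fell, and the median was 0.17. Syt1, the calcium sensor of release, was at 5175 and 4826 RPKM against 3453 and 3252 RPKM (log2 fold change 0.58, SE 0.077, adjusted p = 0.00389) and held its call. Slc17a7, the vesicular glutamate transporter of granule cells, rose (1476 and 1257 RPKM against 953 and 1053 RPKM), while Slc17a6, the transporter that marks brainstem, deep nuclei and climbing fibre neurons, fell (49.7 and 51.9 RPKM against 75.8 and 74.4 RPKM). Sv2b, a vesicle glycoprotein, rose (5227 and 5335 RPKM against 3824 and 4135 RPKM). Of 30 postsynaptic scaffold genes 7 rose and 2 fell, with a median of 0.19. Shank1, a scaffold protein of the postsynaptic density, rose (1368 and 1067 RPKM against 916 and 764 RPKM), and Homer2 (11.3 and 9.91 RPKM against 15.2 and 15.3 RPKM) and the secreted Cbln4 (0.782 and 1.27 RPKM against 2.14 and 1.93 RPKM) fell. Without knockout 1 the vesicle list had 1 call and the scaffold list none, and without knockout 3 they had 4 and 5. The scaffold list had 4 calls without wild type 2. Of 17 immediate early genes Egr1 (57.7 and 58.1 RPKM against 42.2 and 42.7 RPKM) and Ier5 (64.4 and 63.4 RPKM against 39.7 and 50.2 RPKM) rose, and neither was called without knockout 1.

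**Figure D5:**
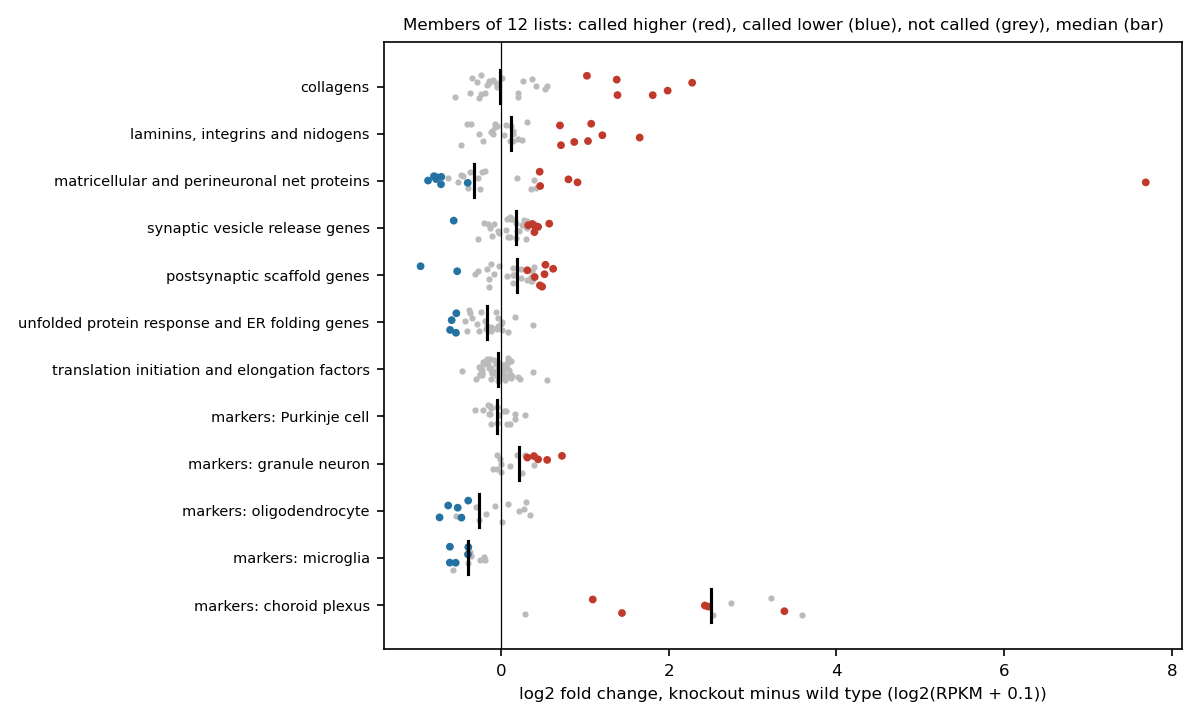
Log2 fold change of each tested member of 12 lists (knockout minus wild type, RPKM + 0.1), red for called higher, blue for called lower and grey for not called, with a bar at the list's median. Collagens hold 6 red points above a median of -0.01, synaptic lists sit slightly above 0, translation factors and Purkinje cell markers hold no call, and choroid plexus markers have a median of 2.5.

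Signalling genes were read pathway by pathway. Of 24 Wnt genes 4 rose and 1 fell, and 3 rose and none fell without knockout 1. Lgr6, a receptor for R-spondins, was at 20.9 and 21.3 RPKM against 6.75 and 5.58 RPKM (log2 fold change 1.77, SE 0.13, adjusted p = 0.000251). Wif1, a secreted Wnt inhibitor, was at 2.37 and 1.96 RPKM against 0.861 and 0.806 RPKM (log2 fold change 1.27, SE 0.16, adjusted p = 0.00325), and Axin2, a feedback inhibitor that Wnt induces, at 15.5 and 14.5 RPKM against 8.04 and 7.01 RPKM (log2 fold change 0.99, SE 0.12, adjusted p = 0.00303). All 3 were held. Dkk3, another secreted modulator, fell (47.0 and 53.4 RPKM against 84.4 and 71.5 RPKM), but not without knockout 1. Of 23 FGF and ERK feedback genes 2 rose and 3 fell. Il17rd rose, while Etv5, a transcription factor downstream of ERK (23.2 and 26.7 RPKM against 41.6 and 44.0 RPKM), Spry1, the feedback inhibitor sprouty (2.61 and 2.41 RPKM against 4.20 and 4.22 RPKM), and Lrtm2 (47.4 and 42.2 RPKM against 69.1 and 78.4 RPKM) fell. Lrtm2 is counted by its place in the list, and its role in this pathway was not examined here. Lrtm2 held its call, and Etv5 and Spry1 lost it without knockout 1.

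Cdon, a co-receptor of Hedgehog (99.4 and 109 RPKM against 63.2 and 69.1 RPKM), and Dtx1, of the Notch pathway (21.9 and 21.2 RPKM against 14.1 and 16.1 RPKM), rose among 23 genes of these pathways, neither of them called without knockout 3. Of 31 TGF-beta and BMP genes Bmp6 was called (135 and 134 RPKM against 104 and 104 RPKM), but in no fit that left out a library. Among 28 phosphodiesterases and cyclases, Pde7b (26.9 and 25.2 RPKM against 14.9 and 15.9 RPKM) and Pde1b (23.1 and 24.9 RPKM against 14.8 and 14.8 RPKM) rose, which break down cyclic nucleotides. Pde7b was not called without knockout 1, nor Pde1b without knockout 3. Rgs16, which speeds the switching off of G proteins, was the call among 14 RGS genes and fell (4.11 and 4.82 RPKM against 10.1 and 11.4 RPKM, log2 fold change -1.25, SE 0.14, adjusted p = 0.00169), and was held.

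Of 31 nuclear receptors 4 rose and 3 fell (1 and 2 without knockout 1), the clock genes Nr1d1 and Nr1d2 among the latter. Rara, a retinoic acid receptor, was at 200.4 and 159.5 RPKM against 65.7 and 75.7 RPKM (log2 fold change 1.34, SE 0.13, adjusted p = 0.000932) and held its call. Ppard, a lipid-sensing receptor, rose too (41.0 and 35.3 RPKM against 24.1 and 19.3 RPKM), but not without knockout 1. In the list of prolactin, insulin and cytokine receptor genes and SOCS genes, 4 of 28 rose and 1 fell, against 3 increases alone without knockout 1 or wild type 2 and 2 without knockout 3. Besides Prlr, Igfbp2 was at 242 and 239 RPKM against 128 and 100.4 RPKM (log2 fold change 1.08, SE 0.12, adjusted p = 0.00188) and held its call. Igfbp6 (360.2 and 462 RPKM against 216 and 300.02 RPKM) and Irs2, an adaptor of the insulin receptor (184 and 196 RPKM against 138 and 122 RPKM), rose, and both lost the call without knockout 3. Of 14 genes that glucocorticoids induce 1 rose and 4 fell. Cdkn1a was the increase, and Zbtb16, the clock gene Per1 (21.4 and 15.2 RPKM against 36.4 and 31.7 RPKM), Fkbp5, a co-chaperone of the glucocorticoid receptor (3.06 and 4.24 RPKM against 7.56 and 6.04 RPKM), and Tsc22d3, the leucine zipper GILZ (169 and 192 RPKM against 301 and 325 RPKM), fell. Tsc22d3 was named after its values were seen, to complete the list. Fkbp5 was not called without knockout 1 or without wild type 2, and Per1 not without knockout 3. Cdkn1a, Zbtb16 and Tsc22d3 were held.

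Immune genes held 6 calls in 3 lists. Of 15 interferon-induced genes Ifit2 fell (0.691 and 0.601 RPKM against 1.29 and 1.45 RPKM), and of 12 antigen presentation genes Psmb10, an immunoproteasome subunit (31.7 and 32.5 RPKM against 41.6 and 44.2 RPKM), shares of 6.67% and 8.33% that lie near the 7.07% of all tested genes. Of 14 complement and phagocytosis genes 3 fell and 1 rose. Mertk, a receptor for engulfing dead cells, was at 18.2 and 20.0 RPKM against 34.6 and 28.8 RPKM, and C1qb, a chain of complement C1q, at 11.7 and 11.8 RPKM against 16.9 and 19.0 RPKM, both lower in the knockout. The increase was in Megf10, a phagocytic receptor of astrocytes (98.9 and 102 RPKM against 67.4 and 71.1 RPKM). Without knockout 1 Ifit2 alone of these 5 genes was called, and without knockout 3 Mertk alone. Beside these values, all 13 tested markers of microglia had a log2 fold change below 0, and 5 were called. The marker list and the complement list share C1qb, so they are not separate observations. What part microglia had in the immune calls was not tested.

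Of 25 p53 target and DNA damage genes Cdkn1a and Trp73 (3.34 and 3.52 RPKM against 2.37 and 1.90 RPKM), a relative of p53, rose and none fell. Of 21 cell cycle and replication genes Ccnd2, cyclin D2, rose (2.66 and 2.28 RPKM against 1.61 and 1.22 RPKM) and Ccne2, cyclin E2, fell (16.9 and 16.0 RPKM against 23.6 and 21.6 RPKM). Trp73, Ccnd2 and Ccne2 were each called in 1 of the 4 fits that left out a library.

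Genes of protein folding and turnover were read in 4 lists. Of 28 unfolded protein response and ER folding genes 4 fell and none rose, with a median of -0.17. Hspa5, the main ER chaperone BiP, was at 57.6 and 72.1 RPKM against 104 and 90.7 RPKM (log2 fold change -0.59, SE 0.13, adjusted p = 0.0337). Sdf2l1, of the same chaperone complex (4.87 and 5.66 RPKM against 8.39 and 7.72 RPKM), Herpud1, of ER degradation (30.3 and 32.7 RPKM against 41.6 and 50.3 RPKM), and Ddit3, the transcription factor CHOP (6.95 and 6.68 RPKM against 9.14 and 10.7 RPKM), fell with it. None of the 4 was called without knockout 1. Of 29 cytosolic chaperones Hspb8 rose (408 and 467 RPKM against 274 and 299.6 RPKM) and Hsph1 fell (177 and 183 RPKM against 301 and 237 RPKM), and the median was -0.18. Neither was called without knockout 3, and Hsph1 not without knockout 1 or without wild type 2. Of 44 proteasome subunits 2 fell, Psmb5 (25.5 and 23.9 RPKM against 38.7 and 36.5 RPKM) and Psmb10, and neither was called without knockout 1 or without knockout 3. The shares called, 6.9% of the chaperones and 4.55% of the proteasome subunits, were below the 7.07% of all tested genes. Of 38 lysosome and autophagy genes 1 rose and 3 fell. Ulk1, the kinase that starts autophagy, was at 47.2 and 38.4 RPKM against 27.8 and 26.8 RPKM, and Tfeb, the master transcription factor of lysosomes, at 98.5 and 112 RPKM against 148 and 177 RPKM. Ctss, a lysosomal protease that marks microglia, fell (41.6 and 43.8 RPKM against 64.1 and 60.2 RPKM), and no call of the list was left without knockout 1.

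The machinery of RNA and protein synthesis held few calls. limma called no gene among 61 splicing factors, 48 RNA helicases, 37 aminoacyl-tRNA synthetases, 75 mitochondrial ribosomal proteins and 61 translation factors. At an unadjusted p under 0.05 they held 12, 6, 3, 15 and 7 genes, against 2819 of all 11676 tested. The 15 mitochondrial ribosomal proteins among them were all lower in the knockout. In these lists limma-voom called 6, 2, 0, 0 and 2, against 1390 of all tested genes. Single libraries moved these counts: 2 splicing factors were called higher and 1 lower without knockout 3, and 1 mitochondrial ribosomal protein higher and 3 lower without wild type 3. The other 3 lists had at most 2 calls when 1 library was left out. The most abundantly read members were Hnrnpu (99.0 and 105 RPKM against 123.3 and 121 RPKM, adjusted p = 0.137), Ddx5 (4276 and 4799 RPKM against 5058 and 5236 RPKM, adjusted p = 0.208), Nars (365 and 393 RPKM against 408 and 416 RPKM), Mrpl3 (41.5 and 45.4 RPKM against 44.4 and 46.4 RPKM) and Eef1a2 (381 and 385 RPKM against 356 and 366 RPKM). Such a lack of calls does not show that these genes were equal. Of 45 cytosolic ribosomal protein genes 3 fell, Rpl35a (0.889 and 0.957 RPKM against 1.67 and 1.60 RPKM), Rps4x (15.3 and 17.2 RPKM against 32.8 and 22.6 RPKM) and Rpl23 (66.7 and 77.3 RPKM against 98.0 and 104 RPKM), none of them called without knockout 1. Ribosomal protein genes have many near-identical copies and the counting rule is not given in the sources used here, so these values are uncertain. Rbm24 and Rbm47 were the calls among 28 genes of the RBM family. Of 75 respiratory chain and ATP synthase genes Cox7b was called (100.4 and 103 RPKM against 169 and 138 RPKM), lower, and not when knockout 1 or knockout 3 was left out.

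Genes of cell shape and adhesion moved both ways. Of 12 tubulins Tubb2b (210.0 and 219 RPKM against 341 and 309 RPKM, log2 fold change -0.60, SE 0.091, adjusted p = 0.00754) and the neuronal Tubb3 (299 and 323 RPKM against 428 and 409 RPKM) fell, neither without knockout 1. Of 26 kinesins and dyneins Kif24 rose (1.58 and 2.01 RPKM against 0.974 and 1.13 RPKM) and Kif3a, a motor of cilia and axons, fell (701 and 810.2 RPKM against 958 and 996 RPKM), and of 27 myosin and sarcomere genes 1 rose, which was Myo10 (1280.1 and 1320.3 RPKM against 1008 and 1048 RPKM), and 1 fell. None of these 3 named genes was called when knockout 1, knockout 3 or wild type 2 was left out. The shares called in the kinesin and myosin lists, 7.69% and 7.41%, lay near the 7.07% of all tested genes. Of 81 cadherins and protocadherins 4 rose and 5 fell. The 4 with the largest changes all fell: Cdh19, Pcdh20 (14.03 and 12.7 RPKM against 24.4 and 27.1 RPKM, held), Pcdh11x (12.9 and 14.5 RPKM against 28.5 and 20.7 RPKM) and Cdh23 (6.15 and 7.17 RPKM against 13.98 and 9.69 RPKM). Without knockout 1 the list had 2 decreases and no increase, and without wild type 3 it had 6 and 8.

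Of 63 semaphorins, plexins, Eph receptors, ephrins and other guidance genes 7 rose and 5 fell. After Ntng2, Sema5b rose (2.40 and 2.26 RPKM against 0.774 and 0.919 RPKM, log2 fold change 1.36, SE 0.16, adjusted p = 0.00208), and so did the ephrin Efnb1 (5.80 and 5.62 RPKM against 2.44 and 3.17 RPKM, log2 fold change 1.01, SE 0.16, adjusted p = 0.00801). Ntng1, netrin-G1, fell (4.06 and 4.58 RPKM against 9.59 and 8.80 RPKM, log2 fold change -1.07, SE 0.13, adjusted p = 0.00257), so that the netrin-G pair went in opposite directions, and all 4 calls were held. Without knockout 1 the list had 4 increases and 3 decreases, and without knockout 3 it had 5 and 2. Leaving out wild type 3 raised them to 9 and 12. Of 36 SOX, KLF and FOX factors Klf13 rose (255 and 186 RPKM against 146 and 143 RPKM), and Klf15 (6.19 and 5.55 RPKM against 9.04 and 11.6 RPKM) and Klf6 (15.9 and 16.5 RPKM against 24.9 and 21.7 RPKM) fell, none without knockout 1. Of 73 histone-modifying enzymes Kdm6b, a demethylase (184 and 143 RPKM against 98.8 and 95.3 RPKM), and Kmt2d, a methyltransferase (142 and 118 RPKM against 93.7 and 91.1 RPKM), rose and none fell, and neither was called without knockout 1.

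Cell type markers were read next. All 18 listed markers of Purkinje cells and all 16 of granule neurons passed the read threshold. So did all 15 listed markers of astrocytes and Bergmann glia and all 17 of oligodendrocytes, so passing it does not identify the tissue. No Purkinje marker was called by limma or limma-voom, 3 had an unadjusted p under 0.05, and 1 was called lower without wild type 2. Itpr1, the calcium release channel abundant in these cells, was at 4893 and 5526 RPKM against 5267 and 6129 RPKM. Of the granule neuron markers 5 rose and none fell, with a median of 0.22. Among them were Grin2c, Fat2, a giant cadherin of parallel fibres (214 and 208 RPKM against 132 and 156 RPKM), Slc17a7 and Tiam1 (1596 and 1535 RPKM against 1145 and 1239.7 RPKM), and none was called without knockout 1, while 2 of the list were without knockout 3 and 2 without wild type 2. The list shares Grin2c and Slc17a7 with the receptor and vesicle lists. Of 14 interneuron markers, Eomes, which marks unipolar brush cells (3.21 and 3.85 RPKM against 8.73 and 6.45 RPKM), and Nxph1 (5.61 and 5.06 RPKM against 8.84 and 7.22 RPKM) fell and none rose, neither called without knockout 1.

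Glial markers were called in both directions in astrocytes and lower in the other 2 types. Of 15 astrocyte and Bergmann glia markers 2 rose and 2 fell: Fabp7, and Gfap, the intermediate filament of astrocytes (104 and 102 RPKM against 72.1 and 78.8 RPKM), against S100b (237 and 248 RPKM against 364 and 402 RPKM, log2 fold change -0.66, SE 0.091, adjusted p = 0.00484) and Gjb6. Fabp7 and S100b held their calls. Of 17 oligodendrocyte markers 5 fell and none rose, with a median of -0.26. Ermn (48.4 and 62.2 RPKM against 99.8 and 83.3 RPKM) and Cldn11 (18.2 and 19.9 RPKM against 25.1 and 27.8 RPKM) were among them, with Ugt8a. The list's median was -0.27 without knockout 1 and -0.25 without knockout 3, but -0.087 without wild type 2 and -0.34 without wild type 3. Of 13 microglia markers 5 fell, with a median of -0.39, among them P2ry12 (8.63 and 7.74 RPKM against 11.7 and 13.3 RPKM), C1qb and Ctss. Neither list had a call without knockout 1, and without knockout 3 they had 2 and none.

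Cldn5, the tight junction protein of brain endothelium, rose (179 and 169 RPKM against 109 and 86.7 RPKM, log2 fold change 0.84, SE 0.12, adjusted p = 0.00573) and was the only call among 15 endothelial and mural markers. Without knockout 1 and without wild type 3 that list had 1 increase and 2 decreases, and without wild type 2 it had 3 increases. Of 10 meningeal markers Igfbp2 rose, and Dcn, decorin (156 and 163 RPKM against 295 and 272 RPKM, log2 fold change -0.83, SE 0.091, adjusted p = 0.00167), and Ogn (1.01 and 1.24 RPKM against 1.79 and 2.00 RPKM) fell. Cldn5, Igfbp2 and Dcn held their calls. Of 10 choroid plexus markers 5 rose and none fell, with a median of 2.5, and in 8 of the 10 the wild types were more than 2-fold apart. Without wild type 2 and without wild type 3 the list had 9 increases, and without knockout 3 it had 3. Enpp2, autotaxin, was at 8537 and 9428 RPKM against 5429 and 2004 RPKM, called with wild types far apart and not when knockout 1 or knockout 3 was left out. Of the brainstem markers 2 were tested, and Slc17a6 fell. None of 4 blood markers was called by limma or limma-voom and 0 had an unadjusted p under 0.05, with Hba-a1 at 1.64 and 1.72 RPKM against 1.48 and 1.21 RPKM.

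Counting error is small in genes read very often. Of 562 genes averaging 10000 reads or more, 56 were called (9.96%, against 7.07% of all tested genes), all outside the clock list. By log2 fold change Fabp7 led them, followed by Enpp2 and then Tmsb4x, thymosin beta 4, which binds actin monomers. Tmsb4x was at 97.4 and 109 RPKM against 229 and 207 RPKM, lower in the knockout (log2 fold change -1.08, SE 0.10, adjusted p = 0.000863), and held its call. Atp1b2 and Sparc followed. At the other end, the genes just inside the threshold on read count were B3galt4 and Adrb1, at 100.09 and 100.3 reads, and those just outside were Hey2 and Zfp85, at 99.96 and 99.92.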

How the data were processed

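Total RNA was prepared from frozen cerebellum lysed with cycloheximide, depleted of ribosomal RNA and fragmented by heat, per the labels' protocols. The values were deposited by the authors as RPKM per gene and library, per the file headers, with a mean read count per gene over all libraries. Bowtie, STAR, Cufflinks and mm10 are named in the submitters' processing notes, and roles and versions are not given in the sources used here. The mean read count was found to be the geometric mean of the 8 libraries with a column, 4 of them footprint libraries. A gene at 0 in any library is therefore left out, and a mean of 100 does not secure 100 reads in total RNA. Kif24, for example, had 41 and 58 total RNA reads in knockouts 1 and 3 and 17 and 21 in wild types 2 and 3. Reads recovered from the mean read count were within 0.1 of a whole number in 99.93% of the 4392 values checked, from genes under 20 reads.

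Genes of 100 mean reads or more were tested on log2(RPKM + 0.1) by limma (3.58.1, under R 4.3.3), moderated along a trend of the variance. The fit compared 2 with 2 libraries and was run on simulated data, with a single dispersion (spread between libraries) of 0.0077 for every gene. In that setting all 100 genes changed by 1 log2 unit were called, 70 of 100 changed by 0.585 and 4 of 11476 unchanged ones. A spread that differs between genes or between genotypes was not tested in this way. The members and lists were chosen with earlier results of these data known. Named outside the clock list were the 15 largest called increases and decreases, up to 4 called genes with the largest change per list or else the gene with the most reads, and 5 called genes with at least 10000 reads. Some genes that this rule names are not reported here. Of the deposited count, only the mean was used as a filter. Coordinates are from GENCODE M21 and promoter sequences from RefSeq GRCm38.p6. Alternatives were other pseudocounts, filters and normalizations, limma-voom on recovered reads and each library left out.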

Additional observations from a re-analysis of the deposited data

How the results depend on the processing

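The number of called genes depended on the filter and on single libraries. Against 826 calls (471 higher, 355 lower), a filter on a mean RPKM of at least 1 gave 467 (286 and 181), and one fit of all 8 libraries gave 234 (144 and 90). Without any filter limma gave 0 calls (0 higher, 0 lower) in 22046 genes, with 2871 at an unadjusted p under 0.05, against 2819 among the 11676 and 1390 calls by limma-voom. Without a variance trend 312 genes were called higher and 247 lower. limma-voom on recovered reads called 1390 (867 higher, 523 lower), 762 of them among the 826 in the same direction. Leaving out 1 library gave 270 to 1292 calls, 163 to 739 higher and 107 to 553 lower. The cause of these shifts was not tested. Pseudocounts of 1 and 0.01, read filters of 20 and 500, quantile normalization and median centring gave 658 to 921 calls. The genes chosen by the naming rule were followed through these settings, and no called gene among them turned its direction. Scd2 and Mrpl3, which were not called, did so close to 0 (Scd2 from -0.0085 to 0.016 without wild type 2, Mrpl3 from -0.064 to 0.0015 without knockout 1). Among the genes of the rule, limma-voom lost the call of Bmp6, Cdh23, Kif24, Panx1, Psmb10 and Rpl23. Genes named outside that rule, such as Coq10b, Tsc22d3 and Spon1, were not followed in this way. No paired analysis was possible because the genotypes share only the number 3. Genes at few reads in the shallower wild types, such as Spon2 with 8 and 14 and Mfrp with 72 and 5, have folds that depend on the pseudocount.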

Other observations

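Genes near Arntl on chromosome 7 were looked at after their values were seen. Of the 69 genes tested within 7.5 megabases of Arntl on either side, 10 were called (14.5%), 6 higher and 4 lower, against 7.03% in the rest of the table and 44 of 773 (5.69%) on the rest of chromosome 7. The window was chosen on these data and carries no test. Spon1, a secreted matrix protein related to the product of Spon2, starts 0.452 megabases after the end of Arntl and was at 155 and 152 RPKM against 112 and 110.2 RPKM (log2 fold change 0.46, SE 0.089, adjusted p = 0.02). Parva, an adaptor of integrins to actin, lies 0.616 megabases before Arntl and was at 1035 and 1042 RPKM against 797 and 689 RPKM (log2 fold change 0.49, SE 0.092, adjusted p = 0.0192). Dkk3 and the clock gene Wee1, a cell cycle kinase (1.16 and 1.43 RPKM against 3.15 and 2.82 RPKM), lie 1.05 and 3.06 megabases before it and were lower. Farther out, Syt9, a synaptotagmin (254 and 218 RPKM against 176 and 164 RPKM), Olfml1 (3.99 and 3.81 RPKM against 2.76 and 2.41 RPKM), Ppfibp2 (115 and 127 RPKM against 91.2 and 92.1 RPKM) and Smg1, a kinase of nonsense-mediated decay (871 and 861 RPKM against 650.4 and 716 RPKM), were higher. Dchs1, a giant cadherin (169.7 and 164 RPKM against 244 and 291 RPKM), and Acsm5, an acyl-CoA synthetase (0.462 and 0.677 RPKM against 1.499 and 1.17 RPKM), were lower. In all 10 genes the genotypes did not overlap, as in 55.7% of all tested genes.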
